A study of Caenorhabditis elegans with 2 samples.

Results

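Of the 24440 autosomal peaks in the pooled list of an HLH-17 ChIP-seq experiment on starved Caenorhabditis elegans larvae, 4806 had their summit in an intron and away from every gene start. They made up 19.7% of the autosomal peaks (exact Clopper-Pearson 95% interval 19.2 to 20.2%), and the pooled list held 30000 peaks in all. A peak was taken as intronic when its summit lay inside a protein-coding gene, in no exon of any gene, and outside a window from 1000 bp upstream to 300 bp downstream of every gene start. Gene and exon records were those of Ensembl for WBcel235, which is the ce11 assembly. The sequence that met the same conditions, called eligible intron below, came to 21.1 Mb in 61892 introns of 13954 protein-coding genes on the 5 autosomes.

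The worms were whole larvae of strain OP643, which carries the insertion wgIs643. That transgene holds hlh-17::TY1::EGFP::3xFLAG together with unc-119(+), and the recipient had the unc-119 (tm4063) allele. The tag is at the C-terminus, the mixed-sex larvae were of the first stage (L1), 6 h of age and starved after bleaching, and the pull-down used an antibody against GFP. Both samples are biological replicates of this group, and no untagged strain or other condition was compared, so the data give positions and levels of peaks and no test between conditions. The deposited notes describe relaxed lists, made with a control, for each replicate and for the pool of both. They also describe a list thresholded by the irreproducible discovery rate, a measure of how alike peaks rank in replicates. The lists hold no read numbers, so the depth behind each peak is unknown. Intervals on shares are exact Clopper-Pearson 95% intervals and those on peaks per Mb are exact Poisson 95% intervals. They cover counting of peaks only and treat peaks as independent. Because the chromatin came from whole larvae, a peak bound in few cells and a weak peak in many cells cannot be told apart.

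HLH-17 belongs to the basic helix-loop-helix (bHLH) transcription factors, is related to the vertebrate Olig proteins and is known from glia of the worm head. Proteins with this domain bind as dimers to the E-box, CANNTG. Introns in C. elegans are mostly short, and the long ones, often near the 5' end of neuronal and developmental genes, are known to hold enhancers and the starts of shorter transcripts.

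The sequences shown first are those of the 3 highest intronic peaks, because they shared a run of 14 bp, and, for contrast, those of a thresholded peak with an E-box (npr-37) and of one in a run of TG repeats (mvk-1). Each spans the summit with 50 bp on each side in the ce11 reference (WBcel235, Ensembl sequence), written 5' to 3'. Capitals mark the shared run in the first group and the E-box in npr-37, and the window of mvk-1 holds neither.

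Y56A3A.7 rank 2, chrIII:11946485-11946585, minus strand: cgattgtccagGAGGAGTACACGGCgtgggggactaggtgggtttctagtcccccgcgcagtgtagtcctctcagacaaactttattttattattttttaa

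Y65A5A.2 rank 19, chrIV:16415233-16415333, plus strand: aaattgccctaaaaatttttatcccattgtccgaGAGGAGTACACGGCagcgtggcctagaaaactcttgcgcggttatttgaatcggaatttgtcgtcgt

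Y65A5A.2 rank 27, chrIV:16415745-16415845, plus strand: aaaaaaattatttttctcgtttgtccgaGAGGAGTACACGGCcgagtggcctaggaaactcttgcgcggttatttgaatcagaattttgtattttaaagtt

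npr-37 rank 91, chrIV:468197-468297, plus strand: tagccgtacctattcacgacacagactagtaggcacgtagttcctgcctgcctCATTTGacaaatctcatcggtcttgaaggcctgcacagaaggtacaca

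mvk-1 rank 44, chrIII:6133434-6133534, plus strand: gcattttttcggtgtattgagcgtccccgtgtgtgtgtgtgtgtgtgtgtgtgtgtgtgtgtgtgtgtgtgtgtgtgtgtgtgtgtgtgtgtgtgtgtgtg

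The shared run, GAGGAGTACACGGC, was sought after the data had been seen, as the longest run common to the sequence within 100 bp of the 3 highest intronic summits, on either strand. Its presence in those 3 peaks is therefore how it was chosen and not a finding. Among the other 4803 intronic peaks none held an exact copy within 100 bp of the summit, whereas 7 of the 19634 autosomal peaks outside introns did, 3 of them among the 87 thresholded ones. The autosomes held 33 exact copies, of which 9 lay in eligible introns. With up to 2 mismatches the run occurred near 14 of those 4803 intronic summits (0.291%) and near 56 of the other autosomal summits (0.285%). The highest of the 14 lay in Y62E10A.13 (rank 234, signal 131), and the remaining 13 ranked from 4093 in eat-2, a subunit of an acetylcholine receptor, to 22507 in Y54G2A.73. Of the 14 windows, all but those in Y62E10A.13, atf-7, srab-25 and W02A2.8 had further genome copies, from 5 in zwl-1 to 290 in comt-3. Copies were counted at 90% identity over at least 100 bp, and 7.59% of all intronic peaks had one. The 2 summits in Y65A5A.2 lay 512 bp apart and their surroundings shared a longer run of 25 bp, while each shared no more than 14 bp with that of Y56A3A.7.

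The highest intronic peak was the second highest of all autosomal peaks. It lay in Y56A3A.7 (WBGene00013228, chrIII:11946459-11946625), in intron 3 of 9, which is 247 bp long, and its summit was 484 bp from the gene start. Its signal was 198 in replicate 1 and 354 in replicate 2, and 563 in the pooled list. Signal here is the authors' deposited value per peak, on an unstated scale that differs between lists, so it ranks peaks within a list only. The peak ranked 2 in each replicate and 2 in the pooled list.

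Y65A5A.2 (WBGene00013419) held the next pair, at chrIV:16415091-16415474 and chrIV:16415603-16415986, both in its intron 3 of 4, which is 1020 bp long. The first had a signal of 107 in replicate 1, 123 in replicate 2 and 228 when pooled, and ranked 15 and 46 in the replicates. The second had 60.0, 153 and 219, and ranked 116 and 19. The order of the pair was thus opposite in the replicates. An annotated start of a shorter Y65A5A.2 transcript lies 802 bp downstream of the first summit and 290 bp downstream of the second.

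In all, 14 intronic peaks were on the thresholded list, which was 0.291% of them (0.159 to 0.488%) beside 0.413% of all autosomal peaks. The share was 0.718% (0.552 to 0.918%) for peaks in a start window, 0.163% (0.0867 to 0.278%) for peaks in exons and 0.382% (0.191 to 0.683%) for the other peaks, which lie outside start windows, exons and protein-coding introns. The interval for introns overlapped those for exons and for the other peaks, and lay below that for start windows. With an estimated q of 1 or less required as well, 3 of the 14 remained. That count was made for intronic peaks only, so it is not compared with other thresholded peaks. Apart from the 3 peaks above, the thresholded intronic peaks had pooled signals from 146 to 195 and lay in 11 further genes.

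Among these 11 genes, unc-17 and gcy-18 have known roles in the nervous system, and npr-37 is placed with them by its name alone. The peak in unc-17 (rank 40, chrIV:3621843-3622226) lay in intron 2 of 3 and also inside cha-1, with which unc-17 shares its locus: unc-17 encodes the vesicular acetylcholine transporter and cha-1 the enzyme that makes acetylcholine. Its signal was 54.4 in replicate 1, 121 in replicate 2 and 194 when pooled. The peak in gcy-18, a receptor guanylyl cyclase of thermosensory neurons, had its summit in an intron of only 46 bp, and its deposited interval reached over the exons on both sides. It had 53.0 in replicate 1 and 98.7 in replicate 2. The peak in npr-37 (rank 91), named as a neuropeptide receptor, lay in intron 2 of 10, the longest intron of this group at 12971 bp, with 54.2 and 92.9. It was 1 of 2 thresholded intronic peaks with an E-box within 50 bp, the other being in W05H12.1.

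The other 8 genes were W05H12.1 (rank 38), T26A8.4 (42), mvk-1 (44), prx-2 (74), epg-9 (76), sir-2.4 (89), tpst-1 (90) and tub-2 (94). mvk-1 encodes mevalonate kinase, prx-2 a factor of peroxisome assembly, epg-9 an autophagy protein, sir-2.4 a sirtuin, tpst-1 an enzyme that sulphates tyrosines and tub-2 a relative of tubby proteins. In replicate 1 their signals ran from 44.0 in sir-2.4 to 71.1 in T26A8.4, and in replicate 2 from 87.9 in tub-2 to 162 in mvk-1. No replicate 1 summit lay within 100 bp of the peaks in mvk-1 and epg-9, and no replicate 2 summit within 100 bp of that in T26A8.4. The mvk-1 window has 342 further copies in the genome at 90% identity over at least 100 bp, and the tub-2 window has 10. The other 12 thresholded intronic peaks had no such copy.

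**Figure D1:**
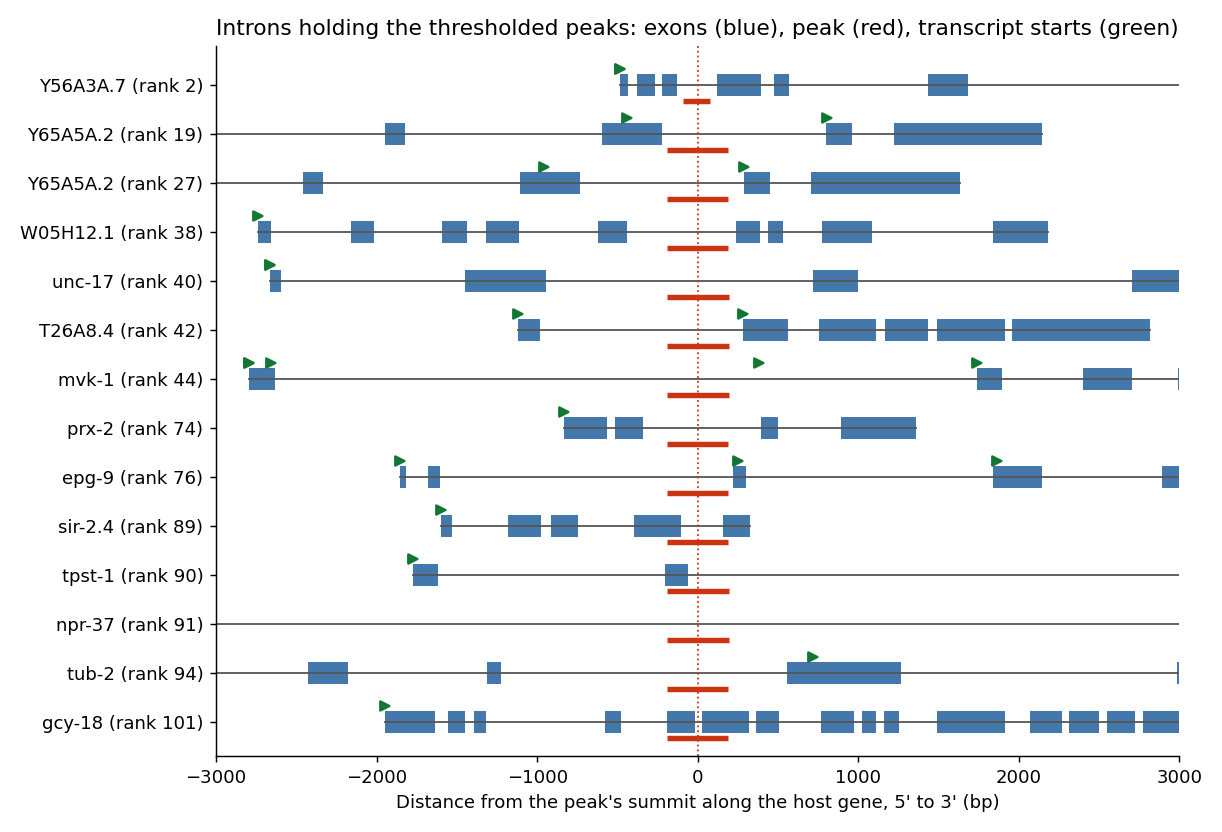
Gene structure around the 14 thresholded intronic peaks, 1 line per peak, with distance from the summit in bp along the host gene on the horizontal axis (5' to the left). Blue boxes are exons of all transcripts, green arrowheads transcript starts and red bars the deposited peaks; a start of a shorter transcript follows within 1000 bp of the summit in both Y65A5A.2 peaks and in T26A8.4, mvk-1, epg-9 and tub-2.

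Starts of shorter transcripts lay near several of these peaks. The rule used the outermost start of each gene, and 6 of the 14 thresholded intronic peaks fell inside the same window drawn around an internal transcript start: both in Y65A5A.2 and those in T26A8.4 (283 bp upstream of the start), mvk-1 (380 bp), epg-9 (249 bp) and tub-2 (718 bp), as the map of the thresholded peaks shows. Over all intronic peaks such windows took 608 (12.7%, 11.7 to 13.6%) and 11.6% of eligible intron. That is 249 peaks per Mb inside them (230 to 270) and 225 outside (218 to 232). Among intronic peaks ranked in the upper 1000 autosomal peaks, 31 of 165 (18.8%, 13.1 to 25.6%) lay in these windows, or 12.7 per Mb (8.63 to 18.0) beside 7.17 outside (6.01 to 8.49). The intervals of these last densities did not overlap.

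Below the thresholded peaks, the next 11 by pooled signal ranked from 104 to 175. They lay in Y51A2D.13, smg-9, lin-17, T06A4.3, lir-1, ints-3, cone-1, lit-1, daf-5, Y22D7AL.11 and C32E8.9. Of the hosts with a well known role, smg-9 acts in nonsense-mediated mRNA decay, and its peak (rank 105, intron 3 of 6) had a signal of 57.2 in replicate 1 and 92.0 in replicate 2. lin-17 encodes a Frizzled receptor for Wnt ligands, and its peak (rank 107, intron 4 of 9) had a signal of 42.7 in replicate 1 and 101.4 in replicate 2. lit-1 encodes a Nemo-like kinase that acts in Wnt signalling and in the shaping of amphid glia, and its peak (rank 134, intron 8 of 10) had 31.6 and 81.3. That peak ranked 8447 in replicate 1 and 884 in replicate 2. The peak in lir-1 (rank 112) lay in its first intron, 8942 bp long, and inside the window drawn around an internal transcript start. That peak was also 1276 bp upstream of the start of lin-26, a zinc finger gene needed for the fate of epidermal and glial cells. Its signal was 29.7 in replicate 1, where it ranked 11059, and 114 in replicate 2, where it ranked 58. daf-5, a Ski-like factor of the TGF-beta pathway, held a peak (rank 148) with 89.4 in replicate 2 and no summit within 100 bp in replicate 1. The same was true of ints-3, of the Integrator complex, which had 100.7 in replicate 2.

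Intronic peaks were somewhat fewer among the strong peaks. They were 165 of the upper 1000 autosomal peaks (16.5%, 14.3 to 18.9%), which is 3.43% of intronic peaks (2.94 to 3.99%) beside 4.09% of all autosomal peaks. Their share was 14.8% of the first 500 (11.8 to 18.2%), 18.2% of the first 5000 (17.1 to 19.3%) and 19.5% of the first 10000 (18.7 to 20.2%). The pooled signal of intronic peaks had quartiles of 62.1, 70.0 and 82.1 and ran from 56.2 to 563. All autosomal peaks had 62.3, 70.3 and 82.6, so the bulk of intronic peaks was as strong as that of other peaks to within 1 unit at each quartile.

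**Figure D2:**
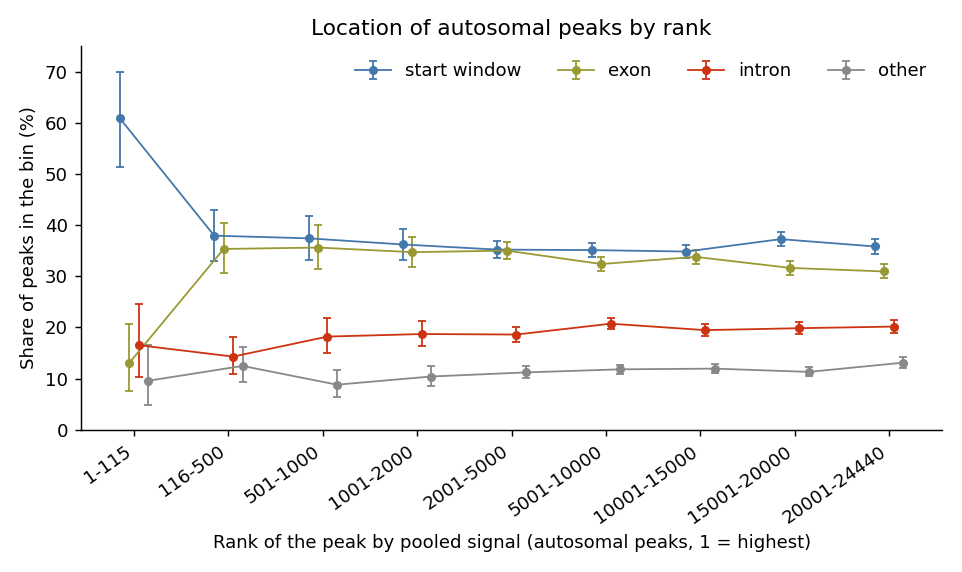
Share of autosomal peaks by location in 9 bins of rank by pooled signal (rank 1 is the highest), with exact 95% intervals as bars. The intronic share was 16.5% in the bin of highest rank, 14.3% in the next, up to rank 500, and between 18.2% and 20.7% in the bins after that.

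Per Mb of sequence, introns held 227 peaks (221 to 234), close to the 222 (214 to 230) of the other class. Start windows held 287 (281 to 293) and exons 447 (437 to 457). For the upper 1000 peaks the densities were 7.81 per Mb in introns (6.66 to 9.10), 7.95 in the other class (6.49 to 9.64), 13.2 in start windows (11.9 to 14.5) and 18.4 in exons (16.5 to 20.5). Intron and exon densities depend on the summit alone: 2732 of the 4806 intronic peaks (56.8%, 55.4 to 58.3%) had a deposited interval that reached into an exon. The windows also cut 1639 intronic summits away. Summits up to 100 bp outside a window, which were kept, numbered 329 and had a median signal of 69.4, and those up to 100 bp inside one, which were left out, numbered 330 and had 69.0.

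Intronic peaks were spread over all intron numbers. Counted from the 5' end of the longest coding transcript that holds the summit, 4791 peaks had an intron number. Intron 1 held 993 peaks, or 20.7% of all intronic peaks (19.5 to 21.8%), beside 19.2% of eligible intron. The density was 245 peaks per Mb in intron 1 (230 to 260), 239 in intron 2, 241 in intron 3, 214 in intron 4, 213 in intron 5 and 214 (203 to 226) in intron 6 or later. The interval of intron 1 lay above that of intron 6 or later. For the upper 1000 peaks the densities ran from 6.39 per Mb in intron 6 or later (4.56 to 8.70) to 9.50 in intron 2 (6.54 to 13.3), with overlapping intervals. Last introns held 728 peaks, 229 per Mb (213 to 246).

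Density varied more with intron length, and both the shortest and the longest introns were above the middle. It was 397 per Mb (366 to 429) in introns of up to 100 bp, 299 (274 to 326) above that and up to 300 bp, 214 (204 to 225) above 300 and up to 1000 bp, 164 (154 to 174) above 1000 and up to 3000 bp, 237 (221 to 253) above 3000 and up to 10000 bp and 303 (266 to 342) above 10000 bp. In introns of up to 100 bp all 633 peaks reached into an exon, and that share fell with length to 34.6% from 1000 to 3000 bp and 3.54% (1.63 to 6.62%) above 10000 bp. A peak wider than its intron must reach into an exon, so these shares were in part fixed by peak width. The deposited peak in npr-37, for example, reached 191 bp and 192 bp from its summit. The part of neighbouring exon sequence in the density of short introns was not tested. GC content moved with length as well: it was 27.1% in eligible sequence of introns up to 100 bp, 32.1% from 1000 to 3000 bp and 35.1% above 10000 bp, and its part was not tested either. The upper 1000 peaks had 5.71 per Mb (3.97 to 7.94) from 1000 to 3000 bp and 11.9 per Mb (8.60 to 16.1) from 3000 to 10000 bp, intervals that did not overlap.

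**Figure D3:**
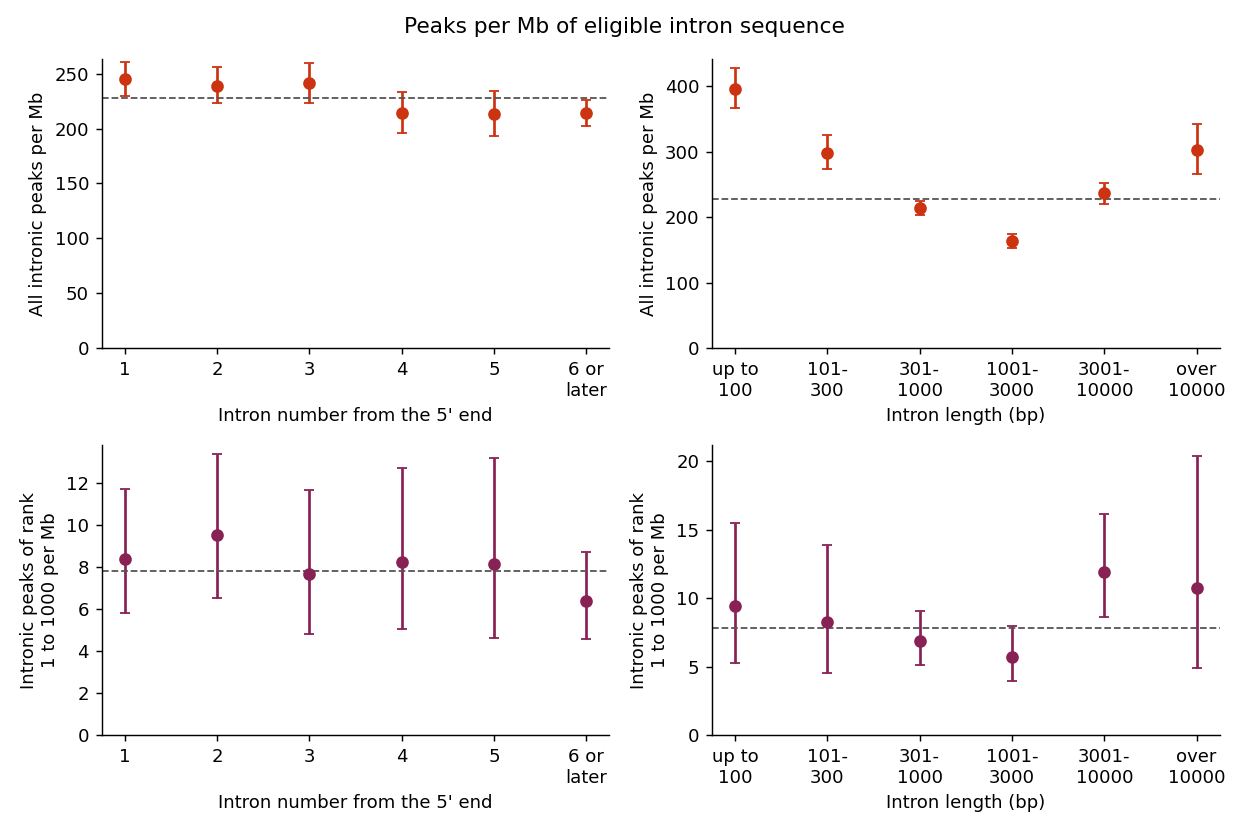
Peaks per Mb of eligible intron by intron number (left) and intron length in bp (right), for all 4806 intronic peaks (top) and the 165 of rank 1 to 1000 (bottom). Points carry exact Poisson 95% intervals and the dashed line is the value over all eligible introns, 227 (top) and 7.81 (bottom); by length the density of all peaks was lowest, 164, from 1000 to 3000 bp.

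By number, the introns with peaks were longer than most introns, but a longer intron also offers more bases for a summit. The 4055 distinct introns had length quartiles of 260, 663 and 1455.5 bp, beside 49, 97 and 447 bp over all eligible introns. Over peaks, so that an intron counts once for each of its peaks, the quartiles were 322, 823 and 2502.5 bp, with a range from 40 to 23892 bp. That median of 823 bp lay below the median over eligible bases, which was 997 bp. When the whole deposited peak had to lie outside exons, the median over peaks was 2613 bp, but introns shorter than the peak cannot meet that condition. First introns were denser than later ones from 1000 to 3000 bp, with 206 per Mb (181 to 233) beside 154 (143 to 165). In every other length bin the intervals overlapped, as from 3000 to 10000 bp, with 267 (238 to 299) beside 222 (203 to 242). Above 10000 bp first introns had the lower value, 290 (236 to 352) beside 312 (264 to 365). Summits lay on both sides of the intron's middle, at a median of 0.516 of its length from the 5' end. Their median distance was 157 bp to the nearer end of the intron and 2532.5 bp to the host gene's start.

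Peaks were spread over all 5 autosomes. Chromosome V had 254 per Mb (239 to 269), II 243 (228 to 260), III 233 (219 to 248), IV 216 (201 to 232) and I 195 (183 to 208). The interval of I lay below those of II, III and V and overlapped that of IV.

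Both replicates showed a summit within 100 bp at 1230 of the intronic peaks (25.6%, 24.4 to 26.9%), beside 27.1% of all autosomal peaks. The share was 27.7% (26.7 to 28.7%) in exons, 27.3% (26.3 to 28.2%) in start windows and 27.7% (26.1 to 29.4%) in the other class. A replicate 1 summit lay near 2171 intronic peaks (45.2%), a replicate 2 summit near 3338 (69.5%), and 527 (11.0%, 10.1 to 11.9%) had neither. Strong peaks were seen in both more often: 128 of the 165 in the upper 1000 (77.6%, 70.4 to 83.7%) and 11 of the 14 thresholded ones (78.6%, 49.2 to 95.3%), beside 23.7% of those below rank 1000. The pooled list ranks by both replicates together, so these shares were in part fixed by the rank.

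Signals of the replicates were weakly related across the 1230 intronic peaks found in both, with Spearman's rho of 0.121 and Pearson's r of 0.218 on the log10 scale. Among the 128 in the upper 1000, rho was -0.261, and among the 1102 below it was -0.0232. Among the 5402 other autosomal peaks found in both, rho was 0.183. These are descriptions across peaks that share 2 libraries and that were selected on their pooled signal, which trades one replicate against the other. At the top of both replicates, 12 intronic peaks were among the first 500 of each and 17 among the first 1000. The same counts are not given here for peaks outside introns, so these are not compared.

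**Figure D4:**
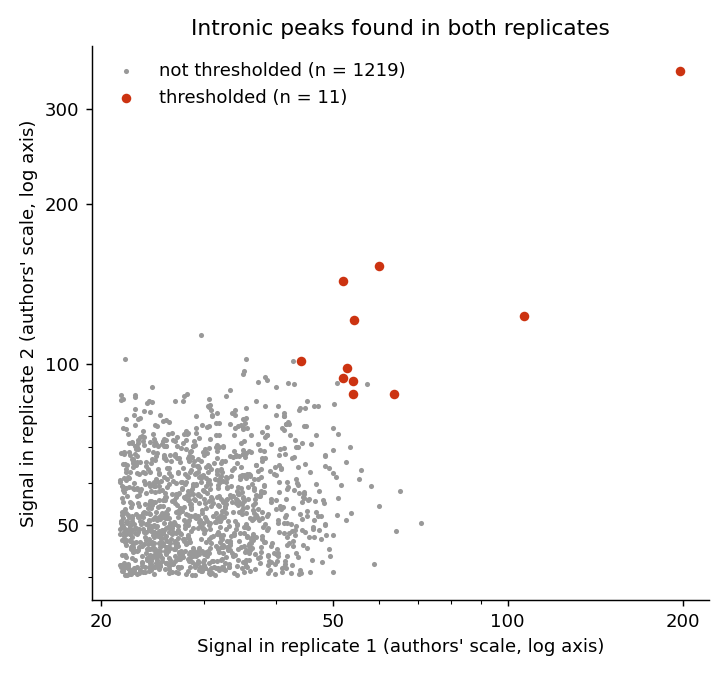
Deposited signal in replicate 1 (horizontal) and replicate 2 (vertical), both on log axes and on the authors' scale, for the 1230 intronic peaks with a summit within 100 bp in both. The 11 thresholded peaks (red) lie along the upper right edge, the peak in Y56A3A.7 farthest out at 198 and 354, and the others (grey) show little relation.

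An E-box lay within 50 bp of 1481 intronic summits (30.8%, 29.5 to 32.1%), below the 38.3% of all autosomal peaks. It was 15.8% of intronic summits within 25 bp and 53.5% within 100 bp. The share was 45.8% (44.7 to 46.9%) in exons, 37.4% (36.4 to 38.4%) in start windows and 33.2% (31.4 to 34.9%) in the other class. It did not rise with signal: 45 of the 165 intronic peaks in the upper 1000 held one (27.3%, 20.6 to 34.7%), and 2 of the 14 thresholded ones (14.3%, 1.78 to 42.8%). Peak sequence was richer in G and C than eligible intron as a whole, with a median of 38.6% within 50 bp beside 32.0% in eligible intron, and 42.6% for the upper 1000. Since GC content sets how often CANNTG occurs, windows lying wholly in eligible intron were compared with all such windows of equal GC in bins of 5%. Of the 3303 intronic peaks with such a window, 29.6% (28.1 to 31.2%) held an E-box, beside 27.9% in windows of equal GC and 23.0% (22.8 to 23.2%) in all windows. For the 129 of these in the upper 1000 the values were 25.6% (18.3 to 34.0%) and 28.0%.

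By form, CAAATG was the most frequent, at 382 intronic summits (7.95%, 7.20 to 8.75%) beside 2032 of the other autosomal peaks (10.3%, 9.93 to 10.8%). Next came CAACTG at 206 (4.29%) and CAATTG at 200 (4.16%), and CATATG was the least frequent at 81 (1.69%). The forms were counted on both strands, so that each stands for itself and its reverse complement. All 10 forms were more frequent per kb near intronic summits than in eligible intron as a whole, with 0.169 beside 0.139 for CATATG, 0.806 beside 0.679 for CAAATG and 0.321 beside 0.155 for CACCTG, without regard to GC. Those windows are the ones with the higher GC content given above. Only 3303 of them lay wholly in eligible intron, so the others also held sequence outside it, and its part was not tested.

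A further copy of the sequence within 100 bp of the summit was found for 365 intronic peaks (7.59%, 6.86 to 8.38%), beside 5.50% of all autosomal peaks, 2.89% in exons (2.54 to 3.28%) and 9.07% (8.05 to 10.2%) in the other class. Peaks with a further copy had a summit in both replicates at 23.6% (19.3 to 28.3%) and those without at 25.8% (24.5 to 27.1%).

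The intronic peaks lay in 3059 of the 13954 genes with eligible intron (21.9%, 21.2 to 22.6%). Of these hosts 2179 held 1 peak and 110 held 5 or more. The share of hosts followed the amount of eligible intron closely: it was 5.09% (4.46 to 5.79%) of genes with up to 300 bp, 15.2% above that and up to 1000 bp, 33.1% up to 3000 bp, 55.8% up to 10000 bp and 80.4% (75.3 to 84.9%) above 10000 bp. The median distance from a summit to the nearest other intronic summit was 3322 bp. Of the 4055 introns with a peak, 3576 held 1 and the largest number in an intron was 8.

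The genes with the most peaks had long introns and moderate signals. pde-3, a cyclic nucleotide phosphodiesterase, had 15 peaks in 28.2 kb of eligible intron, or 532 per Mb (298 to 878), and the highest of them ranked 800. unc-52, the perlecan of the basement membrane, had 13 in 19.3 kb (673 per Mb, 358 to 1150). aakg-1, a gamma subunit of the AMP-activated kinase, had 12 in 30.6 kb (392 per Mb, 203 to 686). hmr-1, the classical cadherin, had 12 in 42.9 kb (280 per Mb, 145 to 489), and mbk-2, a kinase of the DYRK family, had 12 in 21.3 kb (563 per Mb, 291 to 984). The intervals of pde-3, unc-52 and mbk-2 lay above the 227 per Mb over all genes, those of aakg-1 and hmr-1 held it, and all 5 genes were chosen for their count. Of the peaks in these genes, 3 of 15 in pde-3, 3 of 13 in unc-52, 3 of 12 in aakg-1, 2 of 12 in hmr-1 and 5 of 12 in mbk-2 had a summit in both replicates.

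Hosts were described by 20 gene lists, and each share stands beside 21.9% over all genes and a median of 626 bp of eligible intron per gene. Cell adhesion and axon guidance genes had the highest share, 34 of 44 (77.3%, 62.2 to 88.5%), with a median of 4800 bp of eligible intron. Their density was 321 per Mb (260 to 393). The strongest peaks in this list lay in efn-4, an ephrin (rank 419, signal 30.6 in replicate 1 and 86.2 in replicate 2), and zig-8, a protein with immunoglobulin domains (rank 483, 41.5 and 77.4). Within replicates 1 and 2 the efn-4 peak ranked 9745 and 523, and the zig-8 peak 1873 and 1324. The density per Mb takes account of the amount of intron, but it also varied with intron length as given above, and the part of intron length in a list's density was not tested. Intervals below hold the 227 per Mb over all genes unless said otherwise. Where an interval lay above it, the density was also taken without the list's gene with the most peaks, an alternative added after the data were seen. Without hmr-1 the cell adhesion and axon guidance genes had 328 per Mb (261 to 407), still above.

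Signalling and channel genes are given together here. Median eligible intron per gene was 1848 bp for second messenger, 2972.5 bp for potassium channel and 2396.5 bp for calcium and sodium channel genes. It was 1911 bp for transmitter and peptide receptors and 1727.5 bp for ligand-gated channels. All these lie above the 626 bp over all genes, and the part of eligible intron in the shares was not tested. Second messenger genes numbered 47 hosts of 80 (58.8%, 47.2 to 69.6%), with 366 peaks per Mb (308 to 433) and 353 (293 to 421) without pde-3, and pde-4, a phosphodiesterase of cyclic AMP, held the strongest after gcy-18 (rank 255, 41.2 and 80.0). Potassium channel genes had 28 of 48 (58.3%) and 284 per Mb (221 to 360), led by kvs-2 (rank 212, 50.1 and 76.0) and kvs-5 (rank 317, 43.8 and 82.2), which are voltage-gated. Calcium and sodium channel genes had 15 of 26 (57.7%) and 345 per Mb (233 to 493), led by nca-2, a sodium leak channel (rank 2898, 49.5 and 43.8). The nca-2 peak ranked 479 in replicate 1 and 23893 in replicate 2. Transmitter and peptide receptors had 29 of 67 (43.3%) and 262 per Mb (202 to 336), and ligand-gated channels 28 of 72 (38.9%) and 279 per Mb (204 to 372). Synaptic and pan-neuronal genes had 13 of 26 but 205 per Mb (133 to 302) with a median of 3491.5 bp of eligible intron, led by cla-1, an active zone protein (rank 928, 95.8 in replicate 2 and no summit in replicate 1). The intervals of second messenger and of calcium and sodium channel genes lay above the 227 per Mb over all genes. Without nca-2 the latter had 319 per Mb (209 to 468), an interval that holds it.

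**Figure D5:**
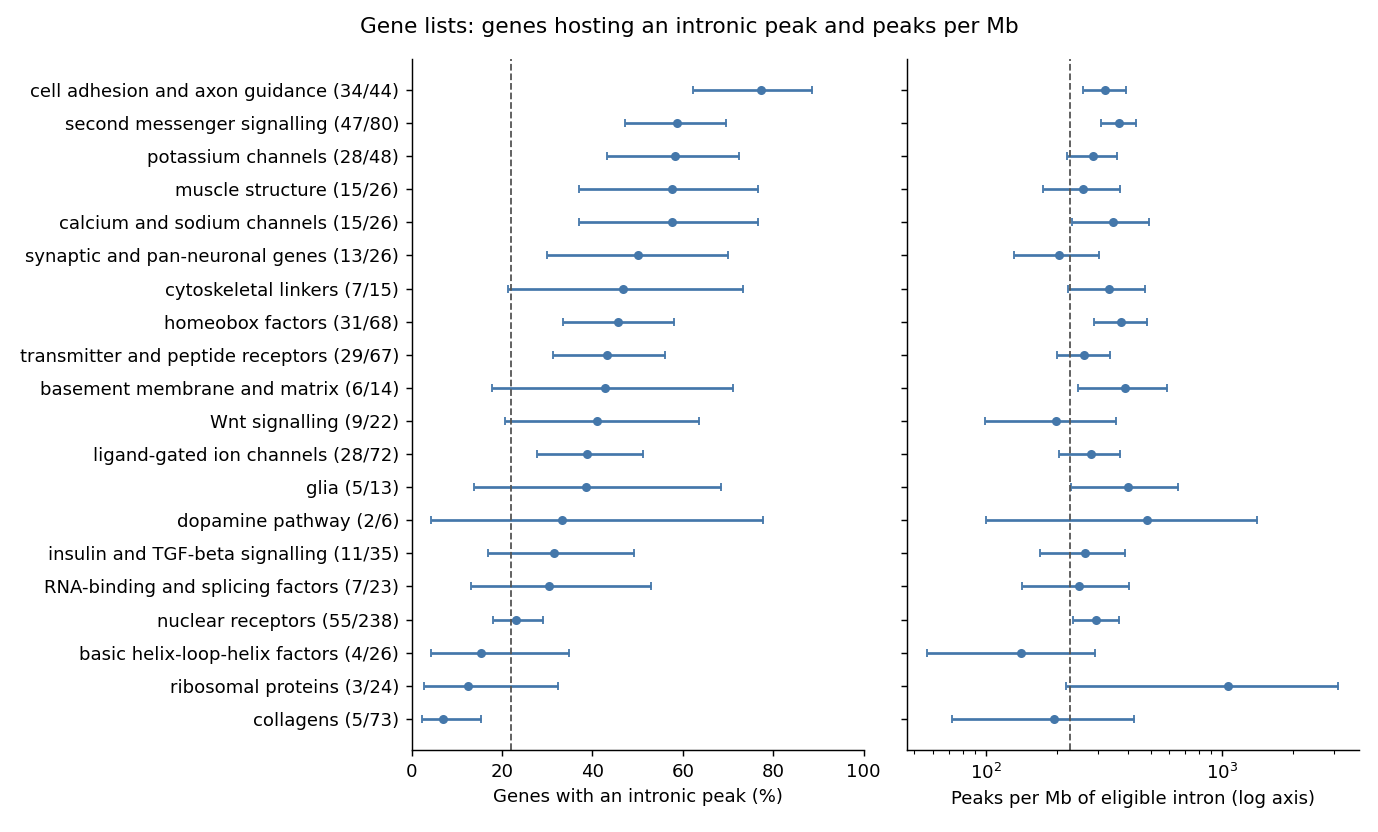
The 20 gene lists by the share of their genes that host an intronic peak in percent (left, exact 95% intervals) and by intronic peaks per Mb of eligible intron (right, log axis, exact Poisson 95% intervals), with hosts and genes tested in parentheses. Dashed lines mark all genes, 21.9% and 227 per Mb; the shares run from 6.85% in collagens to 77.3% in cell adhesion and axon guidance.

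Among transcription factors, homeobox genes stood at 31 hosts of 68 (45.6%, 33.5 to 58.1%) and 376 per Mb (288 to 483), above the value over all genes, and had 370 (277 to 484) without zfh-2. Their median was 1367.5 bp of eligible intron per gene. vab-7, a relative of even-skipped, held the strongest (rank 183), with 108 in replicate 2 and no summit within 100 bp in replicate 1. ttx-1, an Otx factor of thermosensory neurons, followed at rank 184, in its first intron, with 50.3 and 84.3. The ttx-1 peak also lay inside the window drawn around an internal transcript start. zfh-2 held 8 peaks, and vab-7, nob-1, pax-3 and ceh-27 held 4 each. Nuclear receptor genes had 55 of 238 (23.1%, 17.9 to 29.0%) and 295 per Mb (234 to 368), led by nhr-19 (rank 305, 44.9 and 76.8). That interval lay above the value over all genes, and without nhr-85 it was 224 to 357 and held it. bHLH genes had 4 of 26 (15.4%, 4.36 to 34.9%) and 141 per Mb (56.6 to 290). They were hlh-1, the worm MyoD (rank 7423), hlh-30 (7993), sbp-1 (12836) and hlh-11 (24354), all below the upper 1000.

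In the glia list, 5 of 13 genes were hosts (38.5%, 13.9 to 68.4%), with 16 peaks and a median of 1332 bp of eligible intron. The list covers glia in general and is not a list of the cells that express HLH-17. Its density was 402 per Mb (230 to 653), an interval that starts just above the value over all genes. Without lit-1 the list had 390 per Mb (178 to 740), an interval that holds it. lit-1 held 7 of the 16, itx-1 4, fig-1 and grl-18 2 each, and lin-26 1. Without lit-1 the best was fig-1, a gene of amphid sheath glia, at rank 2799 with 26.4 in replicate 1 and 57.2 in replicate 2. The fig-1 peak ranked 16873 and 8889 in these. The dopamine pathway had 2 hosts of 6, which were the receptor gene dop-2 (rank 7902) and bas-1, an amino acid decarboxylase (rank 22149). unc-119, which the transgene also carries, held 1 peak of rank 11621 in its first intron, with a replicate 2 summit and no replicate 1 summit within 100 bp.

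The structural lists varied. Median eligible intron was 2578 bp for muscle structure, 1724.5 bp for basement membrane and matrix and 3080 bp for cytoskeletal linkers. Muscle structure genes had 15 of 26 (57.7%) and 259 per Mb (175 to 370), led by dys-1, the worm dystrophin (rank 1421). Basement membrane and matrix genes had 6 of 14 (42.9%) and 390 per Mb (247 to 585), but unc-52 gave 13 of their 23 peaks and without it the list had 252 per Mb (121 to 463), an interval that holds the value over all genes. Cytoskeletal linkers had 7 of 15 (46.7%) and 332 per Mb (224 to 474), led by zoo-1, the relative of ZO proteins of junctions (rank 398, 33.3 and 89.6). The zoo-1 peak ranked 6623 in replicate 1 and 368 in replicate 2. Collagen genes had 5 of 73 (6.85%, 2.26 to 15.3%) with a median of 170 bp of eligible intron and 196 per Mb (71.9 to 426). Ribosomal protein genes had 3 of 24 (12.5%, 2.66 to 32.4%) with a median of 67 bp and 1065 per Mb (220 to 3111), a value that rests on 3 peaks in 2.82 kb.

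The remaining lists were near the value over all genes per Mb. Median eligible intron was 1713.5 bp for Wnt signalling, 567 bp for insulin and TGF-beta and 1390 bp for RNA-binding and splicing genes. Wnt signalling genes had 9 of 22 (40.9%) and 199 per Mb (99.2 to 356), and the strongest peak after that of lin-17 lay in cam-1, a Ror receptor kinase (rank 397, 32.8 and 87.3). The cam-1 peak ranked 7169 in replicate 1 and 455 in replicate 2. Insulin and TGF-beta genes had 11 of 35 (31.4%) and 263 per Mb (171 to 389), led by daf-5 and ins-28. RNA-binding and splicing factors had 7 of 23 (30.4%) and 250 per Mb (143 to 405), led by msi-1, a Musashi protein (rank 2370). Of the 14 thresholded intronic peaks, 2 lay in a listed gene, gcy-18 and npr-37. Over all intronic peaks, counted by gene, 353 of the 3059 host genes were listed.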

How the data were processed

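Peak lists of 2 biological replicates of HLH-17 ChIP-seq were used as deposited, on ce11. Per the deposited notes, each replicate and the pool of both have a relaxed list made with a control, and the irreproducible discovery rate gave a thresholded list from them. The aligner and the peak caller are, with their versions, not given in the sources used here. Signal is the authors' deposited value per peak on an unstated scale, used to rank within a list. The score column is by the file format −log10 of an estimated q, deposited by the authors with values below 0, and was used in 1 alternative.

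The summit was the start plus the deposited offset. Summits were placed with the Ensembl release 115 annotation of WBcel235, and the placing was checked at 1000 random positions and on 300 planted summits, all of which came out right. Windows, distances and lists are given with the results. A start window is 1000 bp upstream to 300 bp downstream, and a replicate summit counted within 100 bp. E-boxes and GC were read within 50 bp. Further genome copies were sought with BLAST 2.17.0 (90% identity over 100 bp), using Python 3.11.15, numpy 2.4.6, scipy 1.17.1 and matplotlib 3.10.9. Genes were named by rule: hosts of the 25 highest intronic peaks, of all thresholded ones, the 5 genes with most peaks, and up to 2 hosts per gene list by pooled signal. Other genes named, such as itx-1, grl-18, lin-26, zfh-2, nhr-85 and unc-119, were chosen after their values were seen, as were the sequence shared by the 3 highest peaks and the further genome copies. The regions and all lists were chosen with earlier results of these data known. With 1 group there is no test between groups. Alternatives changed the windows, the host rule, the replicate, the distances and the number of peaks.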

Additional observations from a re-analysis of the deposited data

How the results depend on the processing

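No paired analysis was possible because the samples form 1 group. Over 17 alternatives, 75 of 105 values stayed within their error or within 1.5 times for counts, and 30 moved. Requiring the whole peak outside exons left 2074 intronic peaks, 1232 host genes and 187 listed hosts, with 30.8% in a first intron, a median intron of 2613 bp, 4.24% in the upper 1000 and a GC of 40.6%. Introns shorter than the peak cannot meet that requirement. The first 10000 pooled peaks alone gave 1581, 1237 and 173, with 53.8% in both replicates, 23.0% in a first intron, 913 bp, 10.4% in the upper 1000 and a GC of 40.6%. Those values follow in part from the smaller number of peaks, and a lower rank limit raises the last shares by construction. Leaving out transcript starts too gave 8 thresholded peaks, 18.6% in a first intron and 752 bp. A window of 2000 and 500 bp gave 18.1% and 997 bp, and one of 500 and 100 bp gave 25.2% and 733.5 bp. Taking the lowest intron number over transcripts put 30.1% in a first intron. For none of these alternatives was the first-intron share of eligible intron taken anew. Their first-intron shares are therefore not to be set beside the 19.2% of the main rule. An estimated q of 1 or less left 3 thresholded peaks, a count made for intronic peaks only. Summits in both replicates were 17.2% within 50 bp and 36.3% within 200 bp, and E-boxes 15.8% within 25 bp and 53.5% within 100 bp. Without peaks that have a further genome copy, an alternative added after the data were seen, the median intron was 784 bp. The cause of these moves was not tested beyond what is stated.

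With the list of a single replicate in place of the pooled one, leaving out the other, the number of intronic peaks was 4910 to 4986, the thresholded 11 to 13 (the list's own highest peaks stood in for the thresholded list), the first-intron share 21.0% to 21.2%, the median intron 824 to 850.5 bp, the E-box share 31.4% to 31.5%, the hosts 3154 to 3187, the listed hosts 357 to 362, the upper 1000 share 3.50% to 3.57% and the GC 37.6% (without replicate 1) to 38.6%. The share in both replicates has no value without a replicate. Depth is unknown, so how many weak intronic peaks would recur in further libraries cannot be read from these lists.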
